A study of Mus musculus with 12 samples.

Results

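The insulin receptor gene Insr, 5 genes that carry or brake its signal (Irs1, Irs2, Akt2, Foxo1 and Trib1) and 4 genes of insulin-like growth factor (IGF) binding proteins (Igfbp1, Igfbp2, Igfbp3 and Igfbp4) were followed in 12 liver libraries. The 10 genes were chosen by name, through the match of the deposited Ensembl transcript IDs to GENCODE M21, and make up 10 of 13267 genes in the table. All 10 were present, and all 10 passed the filter on low values, which kept genes that reached 10 in 6 or more libraries. The livers came from C57BL/6 mice that had first been made obese, with fatty livers, by a high-fat diet. A pellet was then carried under the skin for 6 weeks, either the bare scaffold (control, 6 libraries) or a pellet with 4-hydroxyphenylacetic acid (4-HPAA, 6 libraries), a phenolic acid that gut microbes form from dietary polyphenols. Diet, obesity and strain were common to both groups, lean mice were not analysed here, and the labels give neither sex nor age. The labels do not say that each library is a separate mouse, so the p-values below measure the spread between these libraries. Where single livers are named or counted below, libraries are meant.

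Insulin reaches the liver through the portal vein and binds the insulin receptor, which phosphorylates the adaptor proteins IRS1 and IRS2. These recruit phosphoinositide 3-kinase, and AKT2, the main AKT kinase of insulin action in hepatocytes, then phosphorylates the transcription factor FOXO1 and keeps it out of the nucleus. In the fasting liver FOXO1 is nuclear and drives genes of glucose output together with Igfbp1 and Irs2, so that transcripts of both are known to follow the feeding state. IGF-binding proteins carry IGF1 and IGF2 in blood and tissue and set how much of them reaches receptors. The labels do not say whether the mice were fasted before the livers were taken.

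The deposited values are read counts that the authors had scaled between libraries and rounded, called scaled read counts below, and they summed to between 22869813 and 25255447 per library. Alb, the albumin gene that marks hepatocytes, took 7.59 to 8.72% of a control library and 4.98 to 7.58% of a 4-HPAA library, ranges that only just did not overlap, and its log2 difference was −0.38 ± 0.10 (limma, adjusted p = 0.148). Of the 9 hepatocyte markers measured, 6 had positive and 3 negative differences. The library of 4-HPAA replicate 3 stood apart from the other 11 along the second principal component, at −56.45 against −7.52 to 17.03. Along the first principal component, 4-HPAA replicates 4 and 6 stood at −10.94 and −1.15, within the control range of −31.52 to 2.02. The rest of the 4-HPAA libraries stood at 12.22 to 37.77. Differences are given as 4-HPAA minus control on the scale log2(value + 1), with the standard error (SE) from limma and p-values adjusted by Benjamini-Hochberg over all 12720 genes tested.

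Two-sided limma tests left all 10 genes short of an adjusted p of 0.05, the smallest adjusted p being 0.206 for Trib1. At an unadjusted p under 0.05, 2 of the 10 were found, Trib1 on the higher side and Igfbp3 on the lower side. The same unadjusted threshold was met by 14.8% of all genes tested (1886 of 12720), 7.26% with a higher and 7.56% with a lower 4-HPAA mean, and the adjusted threshold by 0% of them. The same 2 genes were those with an unadjusted p under 0.05 when limma voom with sample quality weights and the exact permutation test were used, and both tools gave 0 of the 10 past an adjusted p of 0.05. The median log2 difference was 0.02 over the 10 genes and 0.00 over all genes tested, and the median size of the difference, without its sign, was 0.14 and 0.13. The groups overlapped in all 10, while they did not overlap in 0.66% of all genes tested, 0.307% with 4-HPAA higher and 0.354% with 4-HPAA lower.

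**Figure D1:**
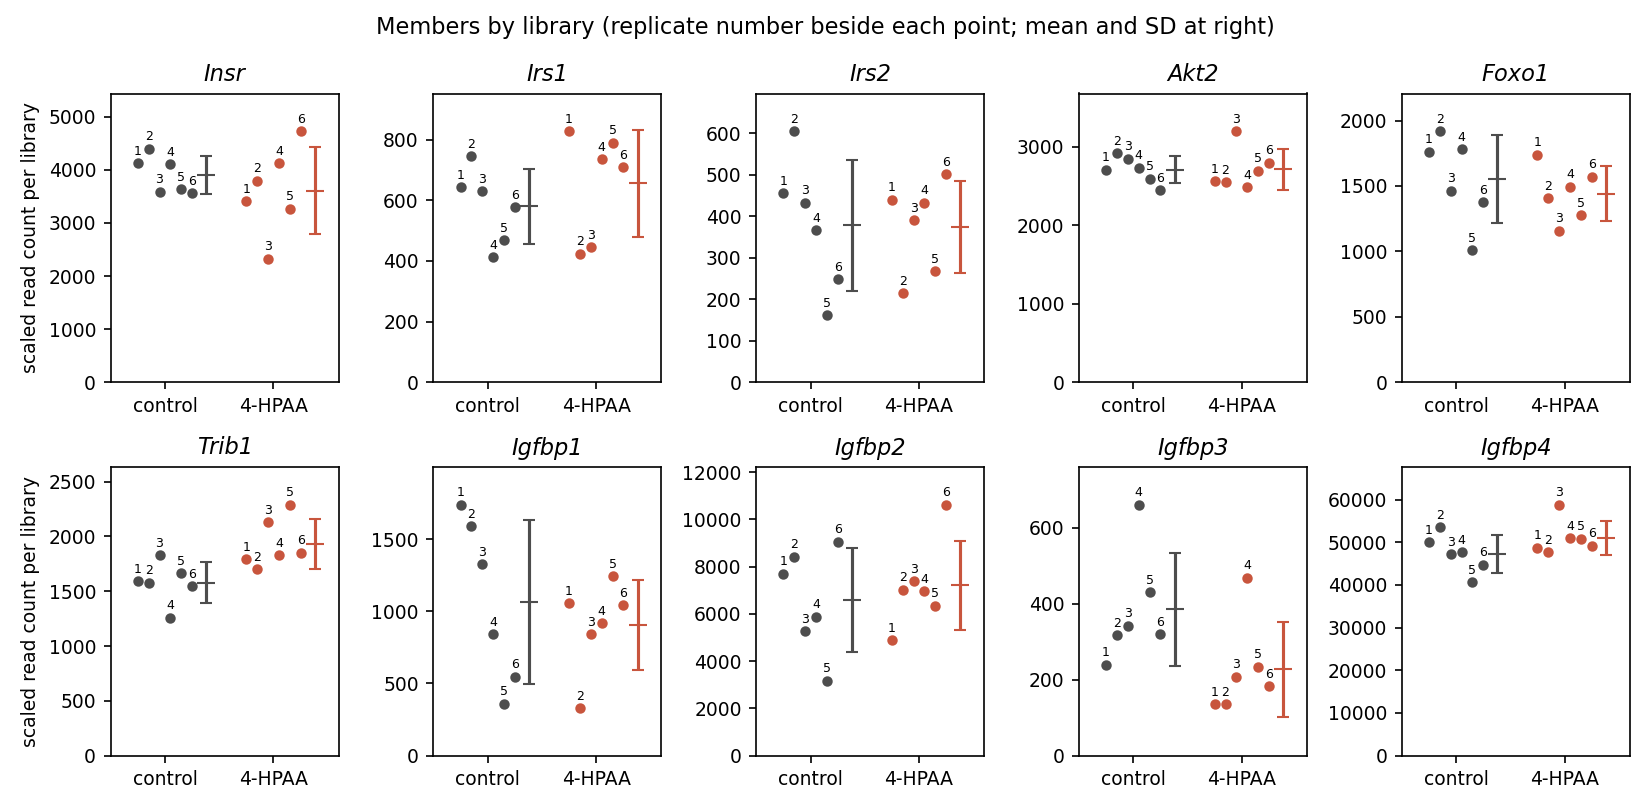
Scaled read count (vertical axis, linear from 0) of each of the 10 genes in the 6 control (grey) and 6 4-HPAA (red) libraries, with the replicate number at each point and the group mean with its SD at the right of each group. The groups overlap in every panel, and Igfbp1 spans 359 to 1738 among the control livers alone.

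Per kilobase of annotated exon, the 10 genes spanned more than 2 orders of magnitude in the mean over all 12 libraries. Igfbp4 stood at 11138 scaled counts per kilobase and Igfbp2 at 3735, and the ranges of these genes over the libraries overlapped neither each other nor that of any other of the 10. Igfbp1 followed at 646, with a range of 216 to 1140. This range overlapped those of Akt2 (mean 380), Trib1 (281) and Insr (273), and just reached that of Foxo1, 117 to 221. Foxo1 stood at 173, Igfbp3 at 97.8, Irs1 at 67.5 and Irs2 at 59.5, and each of these overlapped its neighbours in the order. The most abundant of these transcripts were thus those of secreted binding proteins, and the lowest means were those of the receptor's adaptors. The binding protein Igfbp3 was not among the abundant ones. Its range, 43.1 to 211, enclosed that of the adaptor Irs1, 45.1 to 90.6. Exon length was the union over all annotated transcripts of a gene.

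The receptor came first in the chain and showed no shift beyond its spread. Insr (chromosome 8, 3122061 to 3279617, minus strand, GRCm38) had a lowest, median and highest value of 3557, 3873 and 4403 in control livers and of 2329, 3603.5 and 4730 in 4-HPAA livers. The 4-HPAA livers held both the lowest value, in replicate 3, and the highest, in replicate 6, and so enclosed the control range. The difference was −0.14 ± 0.14 (SE, limma, adjusted p = 0.675), with a 95% interval of −0.44 to 0.15. Without 4-HPAA replicate 3 it was −0.022 ± 0.097, and without 4-HPAA replicate 6 it was −0.23. Igf1r, the related receptor for IGF1, was scarce in these livers, with means of 73.2 ± 13.8 and 65.8 ± 13.8 (SD, n = 6 each), a log2 difference of −0.16 ± 0.18 that was −0.038 without 4-HPAA replicate 3. Of the other genes for ligands, receptors and ligand handling, Ceacam1, which takes part in the clearance of insulin by hepatocytes, had a control mean of 2710 ± 181 and a 4-HPAA mean of 3039 ± 168 (SD, n = 6 each), which differed by 0.17 ± 0.07 (limma, adjusted p = 0.272). Igf1, the growth factor itself, differed by −0.02 ± 0.15, and Igf2 was near the floor of the table, at 3 to 18 in all 12 libraries, and was not tested.

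The adaptors Irs1 and Irs2 spread more within the groups than their means differed. Irs1 (chromosome 1, 82233101 to 82291416, minus strand) ranged from 412 to 745 around a median of 604 in controls and from 424 to 828 around a median of 722 with 4-HPAA. Among 4-HPAA livers replicates 2 and 3 were low, at 424 and 446, and the other 4 lay between 709 and 828, so the groups overlapped. The difference was 0.16 ± 0.19 (SE, limma, adjusted p = 0.752), and ran from 0.063 without control replicate 4 to 0.27 without 4-HPAA replicate 2, with 0.26 without 4-HPAA replicate 3. Irs2 (chromosome 8, 10984681 to 11008458, minus strand) ranged from 162 to 605 around 399.5 in controls and from 215 to 501 around 411.5 with 4-HPAA, so the control range enclosed the other. Its difference was 0.05 ± 0.30 (limma, adjusted p = 0.958), with a 95% interval of −0.60 to 0.70, and its sign turned in 7 of 24 alternative analyses. The ratio of Irs1 to Irs2 per exon length ran from 0.778 to 2 in controls and from 0.791 to 2.04 with 4-HPAA. Among the 13 adaptor genes tested, 10 had positive and 3 negative differences. At an unadjusted p under 0.05 there were 2, both positive, where 7.26% of all genes tested were on the higher side. Of these, Grb14, an adaptor that binds the active insulin receptor and restrains its kinase, had a control mean of 1180.7 ± 80.3 and a 4-HPAA mean of 1396.5 ± 156 (SD, n = 6 each; limma, adjusted p = 0.206). The other, chosen after its values were seen, was the scarce adaptor Sh2b2, at 33.2 ± 8.47 and 46.2 ± 12.8.

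The sequences upstream of Irs1, Irs2 and Igfbp1 are shown because insulin is known to act on Irs2 and Igfbp1 through forkhead factors, and because these 3 windows held a match to the motif searched. RefSeq promoter windows (GRCm38.p6) were found for 8 of the 10 genes, and none for Insr and Trib1. The 250 bases before the transcription start were searched on both strands for CAAAACAA, the core of the insulin response sequence of the Igfbp1 promoter, and for the forkhead core GTAAACA. The motifs were picked with these sequences in view, so the count is a description. CAAAACAA or its reverse TTGTTTTG was present in 3 of 12 windows, 1 each for Irs1, Irs2 and Igfbp1, and in 2.21% of 32851 windows of all genes. GTAAACA was found in 0 of the 12 and in 3.17% of all windows. Sequences run 5′ to 3′ on the strand of the gene, and capitals mark the match to CAAAACAA or its reverse.
Igfbp1, chr11:7197537-7197786, plus strand: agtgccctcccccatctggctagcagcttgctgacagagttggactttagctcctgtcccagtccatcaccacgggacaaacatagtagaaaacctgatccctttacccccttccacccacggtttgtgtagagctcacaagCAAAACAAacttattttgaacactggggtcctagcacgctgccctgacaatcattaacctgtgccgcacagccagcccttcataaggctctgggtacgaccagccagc
Irs2, chr8:11008930-11009179, minus strand: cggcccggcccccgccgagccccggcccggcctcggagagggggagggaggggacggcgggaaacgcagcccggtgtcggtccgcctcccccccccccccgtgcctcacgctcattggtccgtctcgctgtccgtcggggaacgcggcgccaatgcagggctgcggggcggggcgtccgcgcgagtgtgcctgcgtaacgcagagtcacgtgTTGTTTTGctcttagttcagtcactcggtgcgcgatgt
Irs1, chr1:82291440-82291689, minus strand: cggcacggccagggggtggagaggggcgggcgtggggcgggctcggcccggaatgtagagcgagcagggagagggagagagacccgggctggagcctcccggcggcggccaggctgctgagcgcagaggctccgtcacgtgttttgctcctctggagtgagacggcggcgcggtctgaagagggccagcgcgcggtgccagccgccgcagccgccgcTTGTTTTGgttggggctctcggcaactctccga
The match lay 108 to 101 bases before the RefSeq start in Igfbp1, 38 to 31 in Irs2 and 33 to 26 in Irs1. It is on the forward strand in Igfbp1 and on the reverse strand in both adaptors. The RefSeq starts differ from the GENCODE bounds given for these genes, most in Irs2, whose window begins at 11008930 and whose GENCODE gene ends at 11008458.

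Akt2, the kinase (chromosome 7, 27591552 to 27640826, plus strand), had the smallest pooled within-group SD of the 10 genes, 0.11 on the log2 scale against 0.12 for Igfbp4. Among 4-HPAA livers alone Igfbp4 had the smaller SD, 0.11 against 0.13. Its values ran from 2448 to 2916 around 2721.5 in controls and from 2487 to 3200 around 2631 with 4-HPAA, and only 4-HPAA replicate 3, at 3200, lay outside the control range. The difference was 0.00 ± 0.08 (SE, limma, adjusted p = 0.994), with a 95% interval of −0.16 to 0.16, and its sign turned in 9 of 24 alternative analyses, the scalings among them. The sister gene Akt1 had a control mean of 1130.8 ± 96.7 and a 4-HPAA mean of 1419.7 ± 157 (SD, n = 6 each), which differed by 0.32 ± 0.09 (limma, unadjusted p = 0.00232, adjusted p = 0.161). The 4-HPAA values of Akt1 ran from 1191 to 1552 and those of controls from 964 to 1251. The ratio of Akt1 to Akt2 per exon length had a median of 0.753 in controls (range 0.614 to 0.82) and of 0.92 with 4-HPAA (0.741 to 1.06).

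Of 22 genes of AKT and linked kinases, 10 had positive and 12 negative differences, with a median of 0.00, and 0 passed over all genes. At an unadjusted p under 0.05 there were 2, Akt1 and Tbc1d4, against 14.8% of all genes tested. In 1 of the 89 tested genes of the joined insulin and IGF lists the groups did not overlap, against 0.66% of all genes tested. This gene was Tbc1d4, the AKT substrate AS160 that controls glucose transporter traffic. Its values were 124 to 148 in controls and 84 to 116 with 4-HPAA, a difference of −0.45 ± 0.11 (SE, limma, adjusted p = 0.142). The lists of phosphoinositide 3-kinase subunits and lipid phosphatases had 4 positive and 6 negative differences among 10 genes. Their smallest p belonged to Inppl1, the phosphatase SHIP2 that removes the lipid signal of the kinase, with means of 850 ± 67.5 and 1005 ± 124 (SD, n = 6 each; limma, adjusted p = 0.252).

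Foxo1 (chromosome 3, 52268336 to 52353221, plus strand), the transcription factor at the end of the chain, ran from 1010 to 1919 around 1614 in controls and from 1159 to 1739 around 1451 with 4-HPAA. The 4-HPAA range lay wholly within the control range, whose lowest value belonged to control replicate 5. The difference was −0.09 ± 0.15 (SE, limma, adjusted p = 0.829). Leaving out 4-HPAA replicate 3 gave −0.027, and leaving out control replicates 2 or 5 gave −0.020 or −0.21. Foxo3 and Foxo4, factors of the same family, differed by 0.00 ± 0.09 and −0.12 ± 0.08, and the sign of Foxo3 turned with 2 of 3 scalings. Of 16 genes fixed as FOXO1 targets, 4 had positive and 12 negative differences, with a median of −0.09, and 0 passed over all genes (limma). Of all genes tested, 6331 had positive and 6389 negative differences. Among the 16 targets, 1 had an unadjusted p under 0.05, against 14.8% of all genes tested. It was Pdk4, a kinase that shuts off pyruvate oxidation in fasting, with a control mean of 108 ± 41.5 and a 4-HPAA mean of 59.3 ± 18.5 (SD, n = 6 each; limma, adjusted p = 0.206). The largest positive difference of the list was that of Bcl6, 0.84 ± 0.47 (limma, adjusted p = 0.430). Its values ran from 344 to 1465 in controls and from 507 to 2104 with 4-HPAA. Pck1 and G6pc, the enzymes of glucose output, differed by −0.01 ± 0.17 and 0.38 ± 0.30. The list holds Insr, Irs2 and Igfbp1 too.

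Trib1, a pseudokinase that directs the ubiquitin ligase COP1 to the transcription factor C/EBP-alpha, had the smallest p of the 10. The gene lies on chromosome 15, 59648350 to 59657099, plus strand. Its control values were 1594, 1577, 1830, 1257, 1663 and 1546 in replicates 1 to 6, and its 4-HPAA values were 1791, 1700, 2129, 1831, 2289 and 1851. All 6 4-HPAA livers lay above the control mean, and 4 of them above every control liver, replicate 4 only by 1831 to 1830, while replicates 1 and 2 lay below control replicate 3. The difference was 0.29 ± 0.10 (SE, limma, unadjusted p = 0.00931, adjusted p = 0.206; exact permutation test, two-sided, unadjusted p = 0.00649). Its size kept between 0.23 and 0.34 and its unadjusted p between 0.00436 and 0.0253 over 24 alternatives, with an adjusted p of 0.106 to 0.407, so that it passed over all genes in none of them.

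The partners and relatives of Trib1 had differences of either sign. Cop1 and Cebpa, the ligase and its substrate, differed by −0.01 ± 0.09 and 0.03 ± 0.13, and the sign of each turned in some alternatives. Trib2 had a control mean of 70.8 ± 14.3 and a 4-HPAA mean of 42.5 ± 12.4 (SD, n = 6 each), which differed by −0.75 ± 0.20 (limma, adjusted p = 0.159). Without 4-HPAA replicate 4 its adjusted p was 0.0423 (limma), in a setting where 193 of 12677 genes passed. That library lay within the control range along the first principal component. With any other single library left out, the adjusted p of Trib2 was 0.150 to 0.320 (limma). Trib3, a stress-induced relative that binds AKT, differed by −0.35 ± 0.38, and by −0.65 without 4-HPAA replicate 3. Among the 10 measured genes that restrain insulin signalling, Trib1 included, 7 had positive and 3 negative differences, with a median of 0.14. At an unadjusted p under 0.05 there were 3 on the higher side (Trib1, Socs3 and Ahsg) and 1 on the lower side (Trib2). Over all genes tested the shares were 7.26% and 7.56%, and whether the list differs from them was not tested. Socs3, a cytokine-induced inhibitor that also blocks the insulin receptor, had means of 205 ± 117 and 425 ± 165 (SD, n = 6 each; limma, adjusted p = 0.206). Ahsg, the plasma protein fetuin-A, had means of 156741 ± 24341.8 and 186812 ± 14700.9 (SD, n = 6 each; limma, adjusted p = 0.273).

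**Figure D2:**
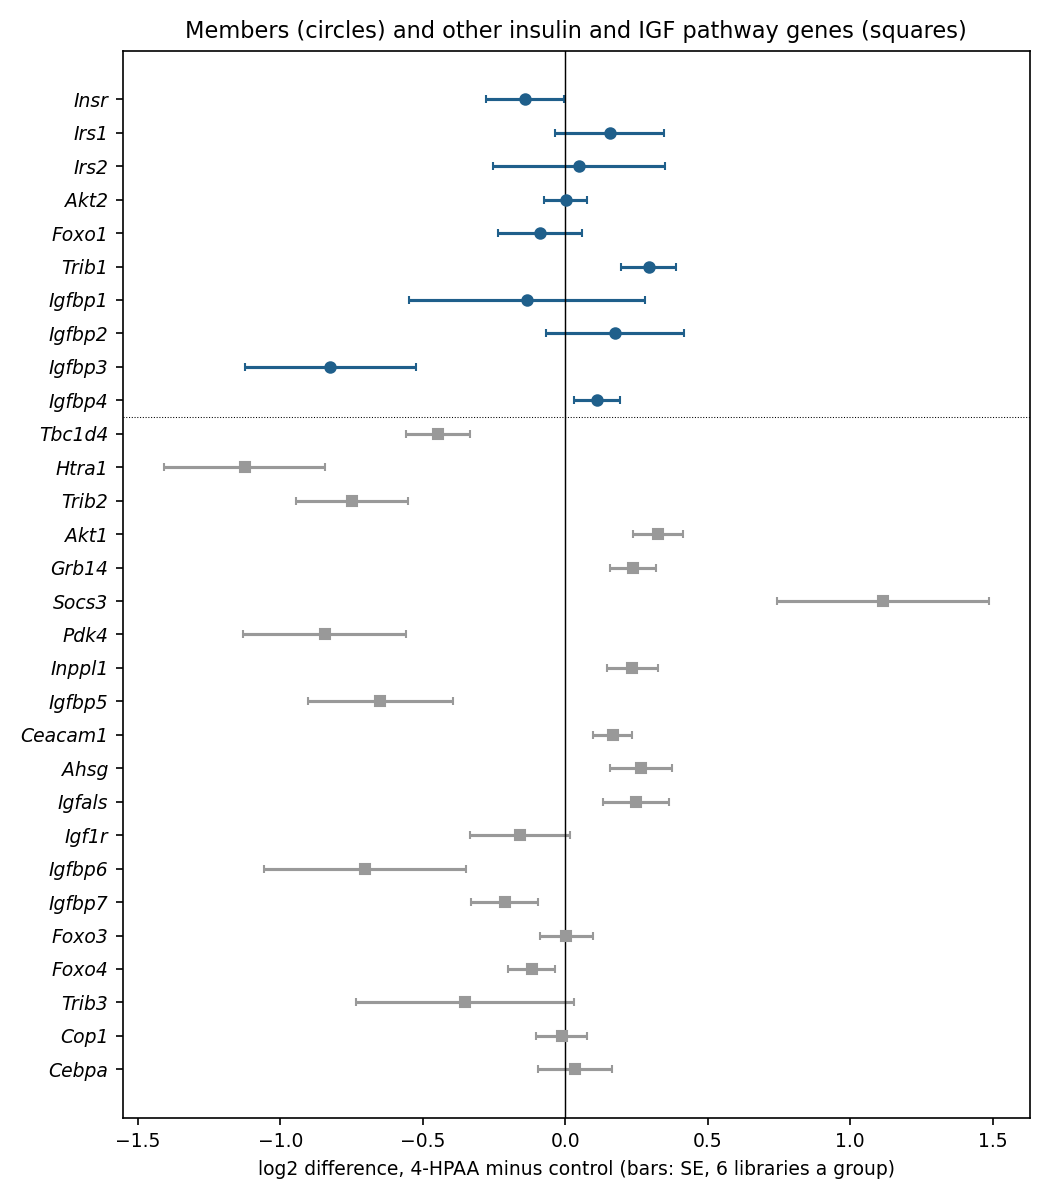
Log2 difference, 4-HPAA minus control, with its SE (horizontal axis) for the 10 genes (circles, above the dotted line) and 20 other genes of insulin and IGF signalling (squares). Igfbp3 at −0.82 is the farthest of the 10 from 0, and none of the 30 passed an adjusted p of 0.05.

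Among the binding proteins, Igfbp1, the acutely insulin-suppressed form made by hepatocytes, had the widest spread of the 10 genes. The gene lies on chromosome 11, 7197782 to 7202546, plus strand. Control livers held 1738, 1587, 1328, 841, 359 and 548 in replicates 1 to 6, and 4-HPAA livers 1056, 329, 839, 917, 1245 and 1042. The highest control liver was thus 4.84 times the lowest, and 3 control livers lay above every 4-HPAA liver. The difference was −0.13 ± 0.41 (SE, limma, adjusted p = 0.912), with a 95% interval of −1.03 to 0.76, and its sign turned without control replicate 1 or 2 or 4-HPAA replicate 2, to 0.05, 0.02 and 0.14. The pooled within-group SD of Igfbp1, 0.81 on the log2 scale, was larger than that of 99.2% of tested genes with a mean from 0.5 to 2 times its own, against 97.3% for Irs2 and 18.9% for Akt2. The same control livers also differed in Kupffer cell markers. Their summed value over 10 genes was 3040, 3546 and 2687 in replicates 1, 2 and 3 and 7733, 7120 and 10824 in replicates 4, 5 and 6, against 4055 to 6828 in 4-HPAA livers. The 4-HPAA livers did not repeat this split. Replicate 5 had the highest marker sum of its group (6828) and the highest Igfbp1 (1245). Replicate 2, lowest in Igfbp1 (329), had a sum of 4375, and replicate 4, lowest in the sum (4055), had an Igfbp1 of 917. The part of these cells in the spread of Igfbp1 was not tested.

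Igfbp2, a form that hepatocytes secrete in quantity and that is low in obesity, lies on chromosome 1, 72824503 to 72852474, plus strand. It ran from 3176 to 9060 around 6795.5 in controls and from 4883 to 10625 around 7001 with 4-HPAA. Control replicate 5 held the lowest value and 4-HPAA replicate 6 the highest. The difference was 0.17 ± 0.24 (SE, limma, adjusted p = 0.785), and −0.020 without control replicate 5. Igfbp4 (chromosome 11, 99041244 to 99054392, plus strand), an inhibitory form that was the most abundant of the 10 genes, ran from 40616 to 53562 around 47471 in controls and from 47739 to 58813 around 50012.5 with 4-HPAA. All 6 4-HPAA livers lay above the control mean on the log2 scale, but the ranges overlapped. The difference was 0.11 ± 0.08 (SE, limma, adjusted p = 0.551), 0.070 without 4-HPAA replicate 3, 0.068 without control replicate 5, and −0.05 when the libraries were quantile-normalized.

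Igfbp3, the main IGF carrier of blood and in liver a product of cells other than hepatocytes, had the largest difference of the 10. It lies on chromosome 11, 7206086 to 7213923, minus strand, tail to tail with Igfbp1 across a gap of 3539 bases. Control livers held 240, 318, 342, 661, 430 and 320 in replicates 1 to 6, and 4-HPAA livers 135, 135, 208, 469, 234 and 183. In 5 of the 6 4-HPAA livers the value lay below every control liver, and replicate 4 lay above all controls but 1. The difference was −0.82 ± 0.30 (SE, limma, unadjusted p = 0.0163, adjusted p = 0.238; exact permutation test, two-sided, unadjusted p = 0.0411). Without 4-HPAA replicate 4 it was −1.06 ± 0.23 and passed over all genes (limma, adjusted p = 0.0455). In that setting 193 of 12677 genes passed, Igfbp3 among them. Over 24 alternatives the difference of Igfbp3 ran from −1.06 to −0.65, with adjusted p from 0.0455 to 0.459. Without 4-HPAA replicate 3 it was −0.83 ± 0.34 (limma, adjusted p = 0.224).

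Markers of stellate cells and fibroblasts moved with Igfbp3. All 10 of these genes were in the table and all 10 were lower in the 4-HPAA mean, with a median log2 difference of −0.54. At an unadjusted limma p under 0.05 there were 6 of 10, against 7.56% of all genes tested on the lower side. The smallest adjusted p of the 10 was 0.135 (limma, Reln and Col3a1), and Lrat and Hgf differed by −0.10 ± 0.33 and −0.29 ± 0.30. The summed value of the 10 was 9672 to 14638 in control and 5877 to 11504 in 4-HPAA livers. Liver by liver, the sum was highest among controls in replicate 4 (14638) and among 4-HPAA livers in replicate 4 (11504), the livers that were also highest in Igfbp3, and lowest in 4-HPAA replicates 2 and 1 (5877 and 6065), which shared the lowest Igfbp3. After removal of the group means, log2 Igfbp3 and the log2 sum had a Pearson r of 0.95 over 12 libraries (permutation within groups, two-sided, p = 9e-05, 0.00063 adjusted over 7 marker lists) and a Spearman rho of 0.91 (p = 0.00057, adjusted 0.00399). Within the groups r was 0.98 in controls and 0.95 with 4-HPAA, and r was 0.90 without control replicate 4 and 4-HPAA replicate 4, the 2 libraries farthest from the median (permutation p = 0.00405). This relation was picked after the values were seen, and fewer such cells and less RNA per cell cannot be told apart in whole liver. Counted per 1000 of the stellate sum, Igfbp3 ran from 24.8 to 45.2 with a median of 31.4 in controls and from 22 to 40.8 with a median of 24.5 with 4-HPAA.

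The other marker lists had lower correlations with Igfbp3. Sinusoidal endothelial markers summed to 6041 to 7768 in control and 5788 to 8414 in 4-HPAA livers and had an r of −0.09 with Igfbp3 (permutation, adjusted p = 0.814), and Kupffer cell markers an r of 0.24 (permutation, adjusted p = 0.605). Lymphocyte markers, 4 of 8 measured and at sums of only 23 to 94, had an r of 0.75 (adjusted p = 0.0078 by permutation). Adipocyte markers, 3 of 7 measured and without Adipoq, Plin1, Lep or Retn, summed to 483 to 1576 in control and 153 to 675 in 4-HPAA livers, with a median log2 difference of −2.60, and had an r of 0.68 (adjusted p = 0.0477 by permutation). Hepatocyte and cholangiocyte markers had an r of 0.46 and −0.17 (adjusted p = 0.318 and 0.71 by permutation). The difference between these correlations and that of the stellate list was not tested. The part of each cell type in the difference of Igfbp3 between the groups was not tested either.

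**Figure D3:**
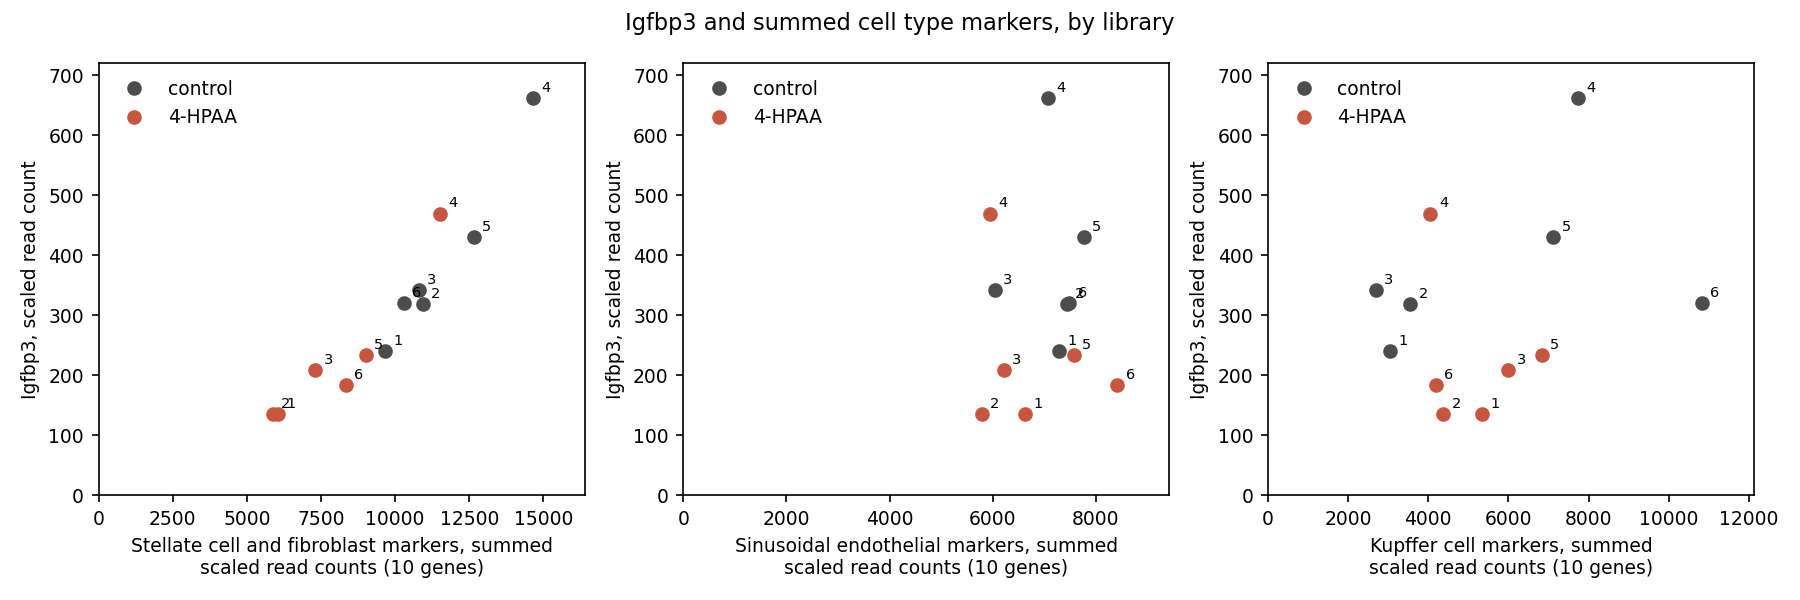
Igfbp3 (vertical axis, scaled read count) against the summed scaled read counts of 10 stellate cell and fibroblast, 10 sinusoidal endothelial and 10 Kupffer cell markers (horizontal axes) in each control (grey) and 4-HPAA (red) library, numbered by replicate. The points follow a rising line in the stellate panel, from 135 to 661, and scatter in the other panels. Lymphocyte and adipocyte markers, not drawn here, had an r of 0.75 and 0.68 with Igfbp3 after removal of the group means.

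The remaining binding proteins and their partners were taken from a list of 13 genes with Igfbp1 to Igfbp4 among them, of which 9 were in the table. Of these 9, 3 had positive and 6 negative differences, with a median of −0.21, and 0 passed over all genes (limma). Igfbp5, the neighbour of Igfbp2 on chromosome 1 and a form bound to matrix, had means of 650 ± 314 and 387 ± 85.7 (SD, n = 6 each), a difference of −0.65 ± 0.25 (limma, adjusted p = 0.262). Without control replicate 3, which stood at 1207, the difference of Igfbp5 was −0.45. Igfbp6 and Igfbp7 differed by −0.70 ± 0.35 and −0.21 ± 0.12. Igfbp6 stood at 91 and 62 in control replicates 3 and 4 and at 22 to 29 in the other controls. Its medians were 28 in controls and 24 with 4-HPAA, and without control replicate 3 its difference was −0.45. Htra1, a secreted protease that cleaves binding proteins, had means of 59.2 ± 17.8 and 27 ± 12 (SD, n = 6 each), a difference of −1.12 ± 0.28 (limma, adjusted p = 0.144). Without 4-HPAA replicate 4 its adjusted p was 0.0308 (limma), in a setting where 193 of 12677 genes passed. That library lay within the control range along the first principal component. With any other single library left out, the adjusted p of Htra1 was 0.0982 to 0.315 (limma). Igfals, the hepatocyte protein that joins IGFBP3 and IGF1 in the large complex of blood, had a positive difference, with a control mean of 2576 ± 432 and a 4-HPAA mean of 3041 ± 380 (SD, n = 6 each; 0.25 ± 0.11; limma, adjusted p = 0.332).

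Within groups, the 10 genes formed 45 pairs, of which 30 had a positive correlation after removal of the group means, and 0 pairs passed an adjusted p of 0.05 (permutation within groups, 12 libraries). The closest pair was Irs2 and Igfbp1. Their Pearson r was 0.85 (permutation p = 0.00221, adjusted over 45 pairs 0.0994) and their Spearman rho 0.79 (permutation p = 0.0122, adjusted 0.274). In the livers with the lowest Igfbp1, control replicate 5 at 359 and 4-HPAA replicate 2 at 329, Irs2 was also lowest of its group, at 162 and 215. Without those 2 libraries r was 0.61 (permutation p = 0.112), so the relation rests in part on them. In controls r was 0.96 and in 4-HPAA livers 0.64, where replicate 5 departed with the highest Igfbp1 of its group, 1245, and the second lowest Irs2, 268.

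Irs1 and Igfbp1 had an r of 0.71 (permutation p = 0.00992, adjusted 0.111) and a rho of 0.76 (permutation p = 0.00157, adjusted 0.0706), with r at 0.68 in controls and 0.79 with 4-HPAA, and 0.68 without 4-HPAA replicates 2 and 3, the 2 libraries farthest in Irs1 (permutation p = 0.0736). Without the 2 libraries farthest in Igfbp1 it was 0.53. Irs1 and Irs2 themselves had an r of 0.53 (permutation p = 0.0761, adjusted 0.381), and 0.25 without the 2 libraries farthest in Irs2. Irs2 and Foxo1 had an r of 0.77 (permutation p = 0.00856, adjusted 0.111) and a rho of 0.67 (permutation p = 0.0333, adjusted 0.295), with r at 0.67 without control replicate 5 and 4-HPAA replicate 2 (permutation p = 0.0309). Akt2 and Igfbp4 had an r of 0.74 (permutation p = 0.0115, adjusted 0.111), and 0.59 without 4-HPAA replicate 3 and control replicate 6 (permutation p = 0.0527). Insr and Igfbp4 had an r of 0.81 in controls and −0.80 in 4-HPAA livers, and −0.24 over both groups (permutation p = 0.413). Replicate 3 of the 4-HPAA group had the lowest Insr and the highest Igfbp4 of all 12 livers. Without it and 4-HPAA replicate 6, r over both groups was 0.54 (permutation p = 0.0976). Without the 2 libraries farthest in Igfbp4 it was 0.18, and the difference between the groups was not tested. Over both groups, r of Igfbp3 with the other 9 genes lay between −0.17 and 0.08, but these values hid wider ones. With Irs1 it was −0.85 in controls and 0.28 with 4-HPAA, and without the 2 libraries farthest in Igfbp3 it was 0.75 with Trib1 and −0.72 with Foxo1, none of which was tested.

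**Figure D4:**
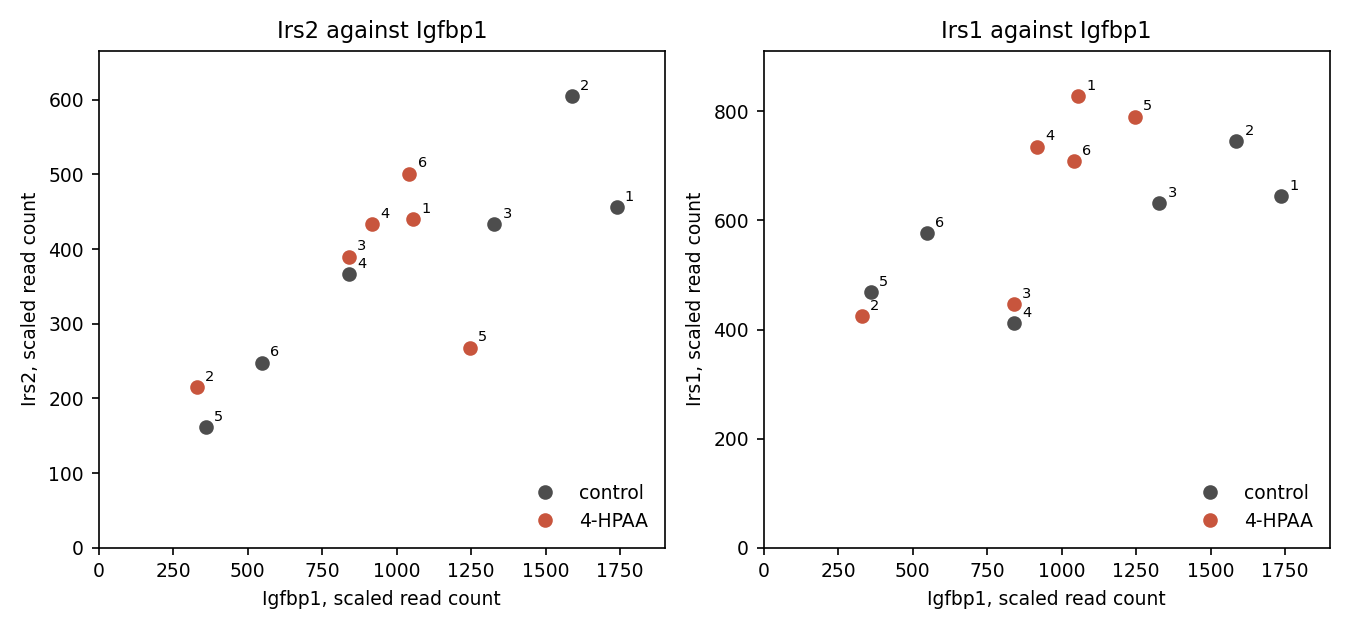
Irs2 (left) and Irs1 (right) on the vertical axis against Igfbp1 on the horizontal axis, all as scaled read counts, in each control (grey) and 4-HPAA (red) library, numbered by replicate. Livers low in Igfbp1, such as control replicate 5 and 4-HPAA replicate 2, were also low in Irs2, and 3 control livers lie to the right of every 4-HPAA liver.

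**Figure D5:**
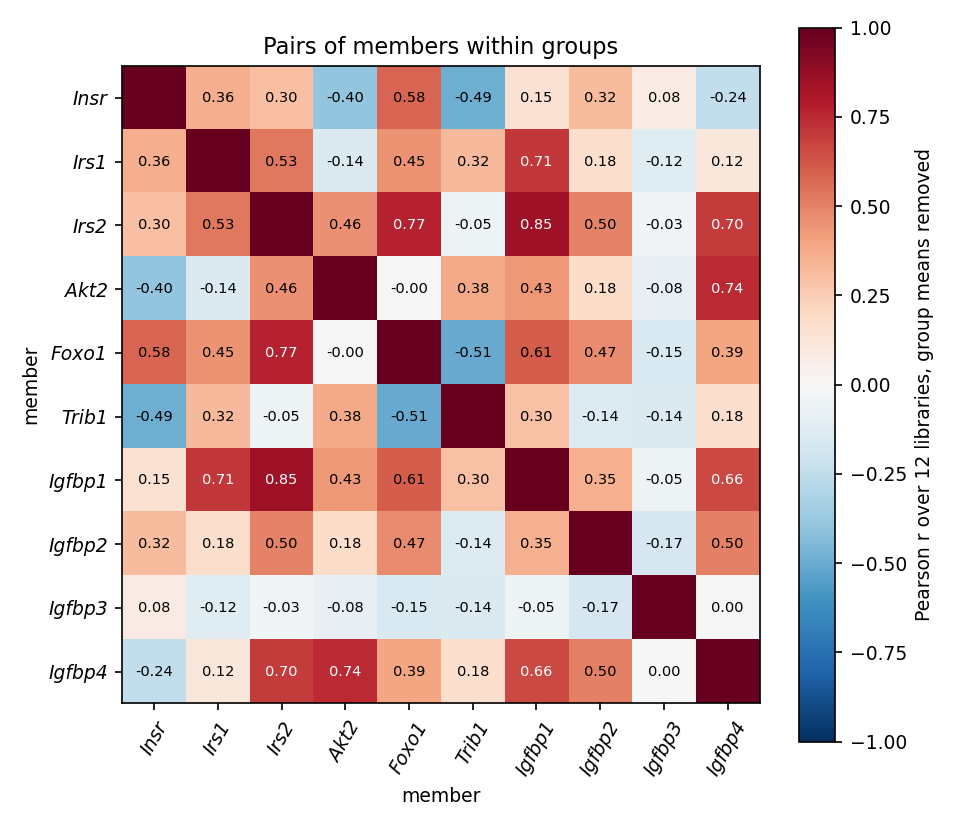
Pearson r for each pair of the 10 genes over the 12 libraries after removal of the group means, from −1 (blue) to 1 (red). Irs2 and Igfbp1 form the closest pair at 0.85, and the row of Igfbp3 holds values between −0.17 and 0.08.

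Across 9591 tested genes with a mean of at least 100, those whose log2 values followed a member most closely within groups are given as a description, without p. For Igfbp3 these were Sparc (r = 0.96) and Col14a1 (0.95), matrix genes of fibroblasts. For Igfbp1 they were Slc15a4 (0.93) and Gnmt (0.93), for Irs2 Irf2bp2 (0.94) and Dnmbp (0.90), and for Irs1 Serpina3m (0.91), a gene with close copies, and 9030616G12Rik (0.86). Insr was nearest to 1700020I14Rik and to Pik3ca, the catalytic subunit of phosphoinositide 3-kinase (both 0.97). Akt2 was nearest to Mrpl38 (0.98) and Creb3l3 (0.96), Foxo1 to Spg20 and Zxdc (both 0.89), Trib1 to Chd3 (0.89) and Pdzd11 (0.88), Igfbp2 to Rpl23 and Med4 (both 0.89), and Igfbp4 to Sirt2 (0.96) and Lims2 (0.93). All share libraries and depth with the gene they follow.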

How the data were processed

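The 6 control and 6 4-HPAA libraries were made from liver with a directional TruSeq mRNA kit, per the labels' protocols. Tools listed in the submitters' processing notes were cutadapt, STAR, HTSeq, edgeR, DESeq2 1.28.1 and FastQC 0.11.9, with the build GRCm38, but their roles and any use of strand are not stated there. The deposited values are treated as a score: whole numbers that the authors scaled by library and rounded, with 2 as the smallest. Gaps and doublings among low values gave factors of 0.8495 to 1.128, or about 22389551 to 26921499 reads per library.

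IDs were matched to GENCODE M21 (13203 of 13267). Limma 3.58.1 (R 4.3.3, trend and robust eBayes) was run on log2(value + 1), which understates changes of low genes, for the 12720 genes that reached 10 in 6 or more libraries.

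The members, lists and tests were chosen with earlier results of these data known. Named genes are the members, the 12 other listed genes of smallest p, the members' relatives (1 is not reported here) and, per member, the 2 genes most correlated with it. Igf1, Igf2, Pck1, G6pc, Bcl6 and Sh2b2 were added after their values were seen. Irs2 overlaps 9530052E02Rik, which lies on the other strand at 2 to 10 per library. All 30 pairs of libraries within a group differed by more than sampling noise. Alternatives were other pseudocounts, filters, scalings, weights and tests, a replicate block, and each library left out. Figures used matplotlib 3.10.9 in Python 3.11.15.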

Additional observations from a re-analysis of the deposited data

Results flagged for a closer look

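In 6 of 60 groups of 6 libraries (30 genes in 2 groups), 1 library lay farther from the others than Dixon's test allows at 95%, where chance flags about 1 in 20 groups. Igfbp3 stood at 469 in 4-HPAA replicate 4, against 135 to 234 in the other 4-HPAA libraries. Htra1 stood at 50 in the same library, against 17 to 27. In 4-HPAA replicate 3, Igfbp4 stood at 58813, against 47739 to 51026, and Grb14 at 1704, against 1276 to 1380. Igfals stood there at 3791, against 2730 to 3014, and Cop1 at 828, against 1085 to 1233. All 6 values belong to 2 of the 12 libraries, and 4 of them to the library that stood apart along the second principal component.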

How the results depend on the processing

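Over 24 alternatives the count of the 10 members with an adjusted p under 0.05 stayed at 0, except that it was 1, Igfbp3, without 4-HPAA replicate 4 (0 to 1 with 1 library left out) and 1, again Igfbp3 at −0.82 (adjusted p = 0.0497), with the replicate block. Deviations of same-numbered libraries correlated from −0.18 to 0.28, over 0.1 in 3 of 6 pairs, and not every library was closest to its own number, so the labels' numbers were not taken as a pairing. Of the insulin and IGF pathway genes 0 to 3 passed with 1 library left out, the 3 being Igfbp3, Htra1 and Trib2 without 4-HPAA replicate 4, and 1 with the replicate block. Of all genes, 0 to 193 passed with 1 library left out (193 without 4-HPAA replicate 4, 5 without control replicate 1), 11 with the replicate block, 7 with sample quality weights and 139 with array weights, and the cause was not tested. Igfbp3 and Trib1 kept their direction and an unadjusted p under 0.05 in 24 of 24 alternatives. With median-of-ratios scaling the sign turned for Akt2 (−0.0019). With library-total scaling the sign turned for Akt2 (−0.029), Foxo3 (−0.026). With quantile normalization the sign turned for Akt2 (−0.024), Igfbp4 (−0.046), Foxo3 (−0.021). With quality weights the sign turned for Irs2 (−0.26), Akt2 (−0.089), Foxo3 (−0.091), Cop1 (0.026), Cebpa (−0.057). With array weights the sign turned for Irs2 (−0.20), Akt2 (−0.064), Foxo3 (−0.068), Cop1 (0.052), Cebpa (−0.033). With 1 library left out, values on both sides of 0 were found for Irs2 from −0.17 to 0.21, Akt2 from −0.047 to 0.026, Igfbp1 from −0.41 to 0.14, Igfbp2 from −0.020 to 0.28, Foxo3 from −0.038 to 0.053, Cop1 from −0.053 to 0.062, Cebpa from −0.060 to 0.12. Near the smallest values tested, about 10, counting error limits what can be seen.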
